A study of Mus musculus with 18 samples.

Results

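The set described here holds 36 mouse genes of glycolysis and of the response to low oxygen, picked by gene symbol from a table of 30854 genes and read on 18 expression arrays. The table held a row for 34 of them, and 31 passed a filter that kept probes detected on at least 2 arrays. Hk2 and Ldhb were not analysed here. The linked probes of Slc16a1, Pfkfb3 and Bnip3 stood above the negative controls on no array and give no level. The 31 members tested are 20 genes of glycolysis and its control and 11 other hypoxia targets, oxygen sensors and subunits of the hypoxia-inducible factor (HIF).

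The samples were tumours of GL261, a mouse glioma cell line, cultured GL261 cells and healthy brain. GL261 cells had been injected into wild-type (WT) or Pfp/Rag2 -/- animals, both of strain C57BL/6. The latter have neither perforin (Pfp), with which cytotoxic lymphocytes open pores in target cells, nor Rag2, an enzyme subunit needed for mature T and B lymphocytes to develop. Collection was at day 7 (4 animals of each genotype), at day 14 (again 4) or at the onset of symptoms (6), and each tumour array read a pool of RNA from 2 or 3 animals. Day 7 and day 14 groups hold 2 arrays each, symptomatic groups 3, healthy brain (labelled C57BL/6, WT) 2 and cultured cells 2. All tumours and cultured cells come from a single cell line, and no label gives the animals' age or sex. Nothing in the labels says that cultures or brains of a group were separate, so for those groups the spread may be technical.

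Glycolysis splits glucose taken up by Slc2a-family transporters into pyruvate, which lactate dehydrogenase turns into lactate or mitochondria oxidise. When oxygen falls, the prolyl hydroxylases Egln1 and Egln3 mark less HIF alpha subunit (Hif1a, Epas1) for breakdown, and HIF binds short DNA elements with the core letters ACGTG or GCGTG near glucose transporter, glycolytic enzyme, Ldha, Pdk1, Vegfa and Car9 genes. HIF is controlled largely through the stability of its alpha subunits, so their mRNA levels are not a readout of its activity. In glioma tissue, Car9 and Vegfa are known from poorly perfused zones.

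The HIF core letters were looked for in the 250 bases before each annotated start (RefSeq, GRCm38.p6), on both strands. Windows were found for 33 of the 36 members, all but Slc2a3, Ndrg1 and Epas1. ACGTG or GCGTG stood in 37 of the 46 windows of members (80.4%), against 38.6% of all 32851 windows. Some windows of the same gene overlap (Aldoa, Eno1 and Pfkm), so a shared match is counted more than once. The members were also picked as glycolysis and hypoxia genes. Windows of members were also richer in G and C (median 62.8%, against 52.4% for all windows), and both motifs hold a CG pair. ACGTG overlaps the palindrome CACGTG of other factors, which stood in 6 of the 46 windows of members, a larger share than the 6.0% of all windows. A match is a description of letters and not a shown binding site. Windows are printed 5′ to 3′ on the gene's strand, with each match in capitals (CACGT and CACGC are the matches on the opposite strand), for 4 of the 5 members that were higher at the symptomatic stage than at day 7 in both hosts (Pgk1, Pdk1, Ddit4 and Ankrd37), for both members with the largest host differences (Car9 and Pfkfb4) and for Ldha, whose window holds CACGTG.
Car9, chr4:43506776-43507025, plus strand: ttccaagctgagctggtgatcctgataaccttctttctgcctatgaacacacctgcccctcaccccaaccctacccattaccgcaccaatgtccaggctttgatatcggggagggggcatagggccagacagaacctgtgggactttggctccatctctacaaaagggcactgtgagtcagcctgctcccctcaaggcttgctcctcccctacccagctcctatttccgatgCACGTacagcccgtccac
Pfkfb4, chr9:108991652-108991901, plus strand: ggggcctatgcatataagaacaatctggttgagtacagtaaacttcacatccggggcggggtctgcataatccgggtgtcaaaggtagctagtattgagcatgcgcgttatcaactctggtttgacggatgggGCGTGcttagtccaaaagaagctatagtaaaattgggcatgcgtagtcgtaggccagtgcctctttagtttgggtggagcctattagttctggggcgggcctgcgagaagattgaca
Pdk1, chr2:71872974-71873223, plus strand: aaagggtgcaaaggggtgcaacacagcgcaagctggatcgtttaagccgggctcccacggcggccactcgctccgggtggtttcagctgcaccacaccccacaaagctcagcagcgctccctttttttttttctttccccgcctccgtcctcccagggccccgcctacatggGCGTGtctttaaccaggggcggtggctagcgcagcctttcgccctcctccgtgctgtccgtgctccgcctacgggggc
Pgk1, chrX:106186850-106187099, plus strand: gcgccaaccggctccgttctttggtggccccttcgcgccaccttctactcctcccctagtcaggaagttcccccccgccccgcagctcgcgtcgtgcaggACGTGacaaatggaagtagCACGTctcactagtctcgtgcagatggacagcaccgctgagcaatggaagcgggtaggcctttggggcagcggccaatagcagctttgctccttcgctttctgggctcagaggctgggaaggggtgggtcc
Ddit4, chr10:59951771-59952020, minus strand: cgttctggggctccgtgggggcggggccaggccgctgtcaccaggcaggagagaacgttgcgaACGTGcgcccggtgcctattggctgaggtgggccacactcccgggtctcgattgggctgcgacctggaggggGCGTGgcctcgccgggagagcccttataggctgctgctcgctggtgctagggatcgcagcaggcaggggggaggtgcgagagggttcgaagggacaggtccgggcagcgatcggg
Ankrd37, chr8:45999851-46000100, minus strand: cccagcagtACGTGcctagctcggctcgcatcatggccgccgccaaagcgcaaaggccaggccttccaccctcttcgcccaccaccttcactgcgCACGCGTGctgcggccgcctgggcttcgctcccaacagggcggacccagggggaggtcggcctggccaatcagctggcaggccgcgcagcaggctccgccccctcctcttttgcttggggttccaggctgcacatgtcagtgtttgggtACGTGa
Ldha, chr7:46845554-46845803, plus strand: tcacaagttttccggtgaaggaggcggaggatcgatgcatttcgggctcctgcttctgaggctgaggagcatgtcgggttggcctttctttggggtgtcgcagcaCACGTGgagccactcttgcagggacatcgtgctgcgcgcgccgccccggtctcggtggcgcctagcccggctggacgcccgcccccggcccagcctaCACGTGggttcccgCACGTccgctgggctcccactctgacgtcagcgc

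Car9 and Pdk1 held 1 match each in these windows, as did Pfkfb4. Pgk1 and Ddit4 held 2 each, Ankrd37 held 4 and Ldha held 5, where each CACGTG counts on both strands. Of the 2 annotated starts of Vegfa, one window held 2 matches and the other none. Pdk1 and Ldha also have a second start, whose windows, not printed, held 0 and 1. The windows of Eno2, Gpi1 and Tpi1 held none, which says only that these letters are not in these 250 bases.

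Marker genes of cell types differed among the tumour groups. The summed signal of 6 neuron markers was 26.6% to 46.7% of healthy brain on the 4 day 7 arrays, 4.26% to 24.8% at day 14 and 3.62% to 12.3% at the symptomatic stage, and 0.860% to 0.866% in cultured cells. Array 1 was the highest of each Pfp/Rag2 -/- group, with 46.7% against 26.6% at day 7, 17.6% against 4.26% at day 14 and 12.3% against 4.77% and 5.83% at the symptomatic stage, and at day 14 the WT arrays parted alike (24.8% and 7.22%). Choroid plexus markers also differed at day 7, at 67.0% to 109% of brain in Pfp/Rag2 -/- and 9.72% to 28.0% in WT tumours. In Pfp/Rag2 -/- tumours they were at 1.01% to 1.72% at day 14 and 0.825% to 38.3% at the symptomatic stage. From day 7 to the symptomatic stage 5 of 6 were called lower in Pfp/Rag2 -/- hosts and 0 of 6 in WT hosts. Microglia and macrophage markers ran higher in WT tumours (at day 14 504% to 511% of brain against 144% to 191%, with 8 of 10 called higher, and at the symptomatic stage 233% to 464% against 115% to 123%, with 7 of 10 called higher). At day 14, 2 of 4 oligodendrocyte markers, 1 of 8 astrocyte markers and 1 of 2 red blood cell markers were also called higher in WT tumours, with 1 of 2 of the last at the symptomatic stage. There 1 of 4 oligodendrocyte and 2 of 3 pericyte markers were called lower. Of the pericyte markers, Cspg4 was also detected in cultured GL261 cells (7.77 and 7.91, log2, against 6.54 and 6.41 in brain), so it does not mark pericytes alone. Pdgfrb was detected on only 2 arrays. T cell markers were called higher in WT tumours for 4 of 5 at each of the 3 stages, and Cd3e, a chain of the T cell receptor complex, was at 6.83 to 8.83 (log2) on the WT and at 4.60 to 4.89 on the Pfp/Rag2 -/- tumour arrays. Transcripts of the deleted genes are not reported here. In bulk RNA, fewer cells of a type and less RNA per cell cannot be told apart, and the part of these shifts in the results below was not tested. Arrays detected 32.6% to 39.8% of their probes, and replicate arrays correlated at 0.966 to 0.996 across genes. Array intensity differed with group. The median unscaled signal was 125 to 134 at day 7, 98 to 102 in symptomatic WT and 77.6 to 93.3 in symptomatic Pfp/Rag2 -/- tumours, and 67.2 and 67.9 in cultured cells. Median negative controls were 100 to 109 at day 7 and 58.2 and 59.4 in cultured cells. Unscaled differences between these groups also hold this shift.

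**Figure D1:**
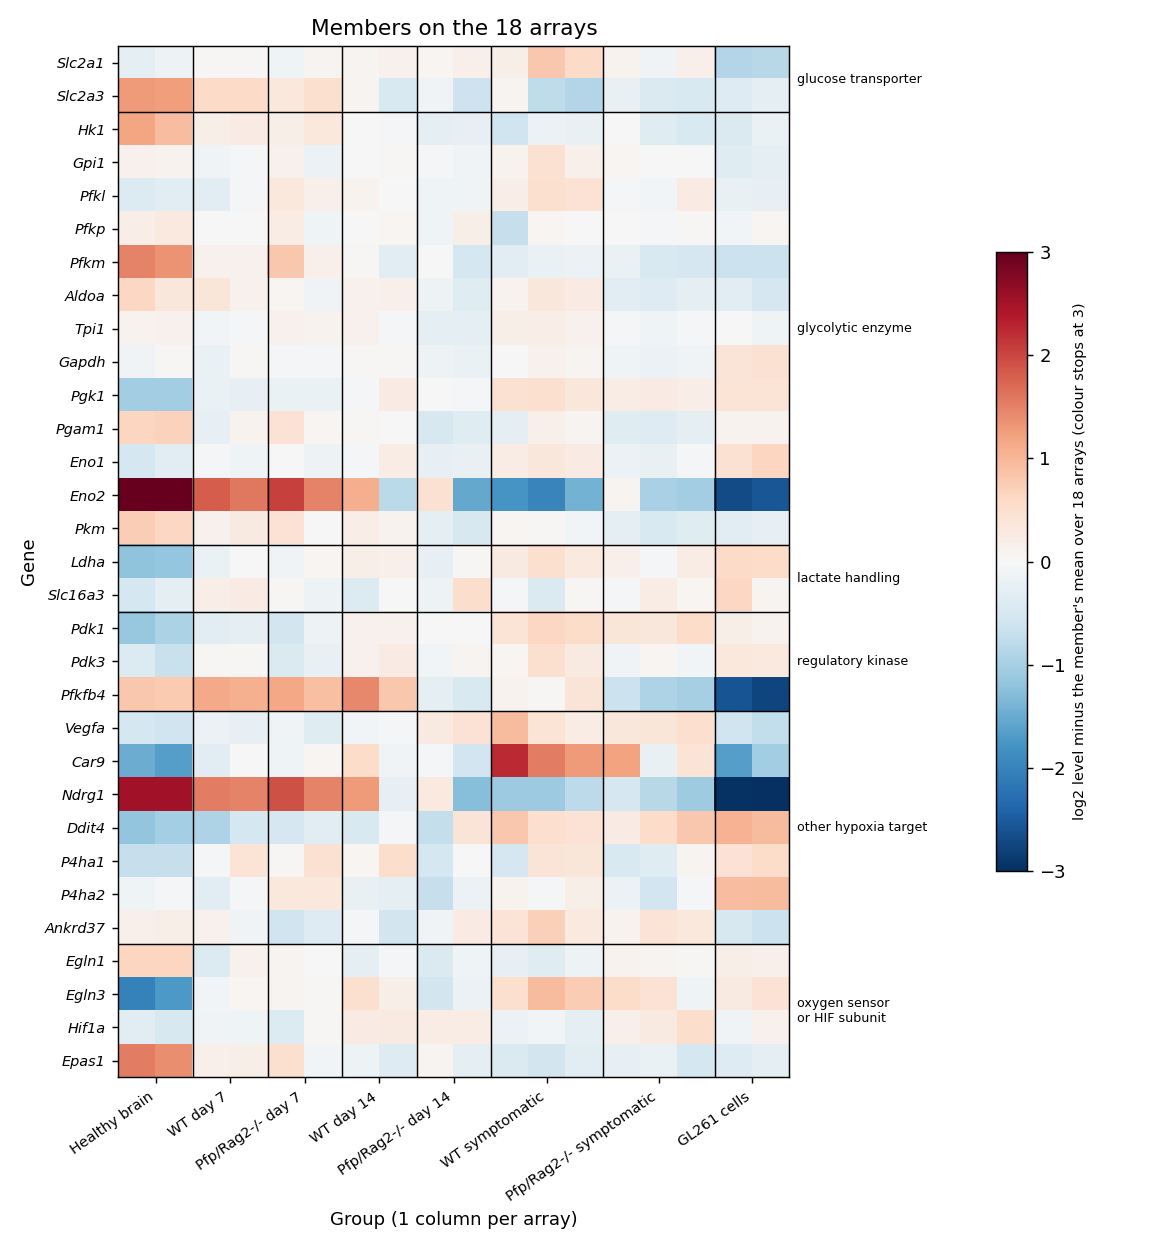
Level of each of the 31 tested members on the 18 arrays, as log2 normalized signal minus that member's own mean (colour, stopping at 3), with members in rows by role and arrays in columns by group. Eno2 and Ndrg1 grade from healthy brain to cultured cells, Car9 is highest in symptomatic tumours, and Pfkfb4 is lowest in cultured cells.

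Between cultured cells and healthy brain, glycolysis genes split. Cultured GL261 cells had more mRNA of Ldha (3.36-fold), Pgk1 (2.75-fold), Pdk1 (2.29-fold) and Eno1 (1.96-fold), and healthy brain had more of Eno2 (51.9-fold), Pfkfb4 (at least 4.65-fold), Pfkm (4.20-fold), Slc2a3 (3.04-fold) and Hk1 (2.57-fold), with adjusted p from 6e-09 to 0.00012. Cells were also higher in Egln3 (at least 3.72-fold), Ddit4 (2.11 ± 0.30, log2), P4ha1 (1.18 ± 0.30), P4ha2 (1.01 ± 0.19), Pdk3 (0.84 ± 0.14), Gapdh (0.46 ± 0.11) and Hif1a (0.42 ± 0.16), with adjusted p from 1.3e-06 to 0.026. They were lower in Ndrg1 (at least 26.9-fold), Epas1 (at least 1.39-fold), Pkm (-0.98 ± 0.14), Aldoa (-0.91 ± 0.14), Ankrd37 (-0.73 ± 0.20), Slc2a1 (-0.65 ± 0.17), Pgam1 (-0.56 ± 0.17), Egln1 (-0.49 ± 0.16) and Gpi1 (-0.42 ± 0.13), with adjusted p from 1.9e-07 to 0.015. Under cyclic loess Gapdh read -0.20 and Hif1a 0.12 (adjusted p = 0.091 and 0.47), and as a mean over probes Pkm read 0.96, P4ha1 0.36, Pgam1 -0.24 and Egln1 0.01. Left-out arrays ended the calls of Hif1a (brain 2 or cells 2), Egln1 (brain 1 or 2 or cells 2) and Gpi1 (cells 1), with adjusted p from 0.053 to 0.17. A gene is called when limma's Benjamini-Hochberg adjusted p over all 13947 genes tested is under 0.05. By that rule 26 of 31 members differed between cells and brain (83.9%), 12 higher and 14 lower in cells, beside 76.3% of all genes (41.9% higher and 34.4% lower), so the members' share lies near the background.

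From day 7 to the symptomatic stage, Ddit4, Pdk1, Vegfa, Ankrd37 and Pgk1 were called higher in both hosts in the main fit, and Eno2, Ndrg1, Pfkfb4, Slc2a3 and Hk1 lower in both, as was the near-background Epas1. The rise of Ankrd37 in WT hosts was still called in 3 of 13 alternatives. In WT hosts 19 of 31 members were called (61.3%, 13 higher and 6 lower), beside 52.1% of all genes (30.7% higher and 21.4% lower). In Pfp/Rag2 -/- hosts 16 were called (51.6%, 6 higher and 10 lower), beside 48.5% (26.8% higher and 21.7% lower). These shares are near the background. Without array 1 of the Pfp/Rag2 -/- day 7 and symptomatic groups, 8 were called in those hosts, 3 higher and 5 lower. The split between higher and lower depends on scaling: with cyclic loess in place of quantile scaling it was 7 higher and 9 lower in WT and 4 higher and 13 lower in Pfp/Rag2 -/- hosts, and with the unscaled series matrix values 1 higher and 10 lower, and 0 higher and 15 lower. The median of all genes held by each setting moved with it, from 0.15 to -0.05 and -0.59 (log2) in WT hosts and from 0.13 to -0.05 and -0.77 in Pfp/Rag2 -/- hosts.

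Between hosts, Pfkfb4 and Pkm were higher in WT tumours at day 14, and at the symptomatic stage these and Car9, Aldoa, Slc2a1 and Eno1 were, while Hif1a was lower. No member was called at day 7 by limma's adjusted p (beside 3.41% of all genes, 2.36% higher and 1.05% lower, while 10 of 31 members had host groups that did not overlap, beside 39.8% of all genes). At day 14, 2 members were higher in WT tumours (6.45%, beside 13.6% of all genes, 7.16% higher and 6.42% lower), and at the symptomatic stage 6 were higher and 1 lower (22.6%, beside 17.0% of all genes, 9.18% higher and 7.87% lower, and 4 higher and 1 lower without array 1 of the Pfp/Rag2 -/- day 7 and symptomatic groups). Under cyclic loess, 5 members were called at day 14, all higher in WT tumours. Host groups did not overlap for 17 members at day 14 and 16 at the symptomatic stage, beside 48.0% and 38.7% of all genes. For the stages this held for 24 members in WT and 20 in Pfp/Rag2 -/- hosts, beside 69.2% and 68.6%. Between symptomatic tumours and cultured cells it held for 23 (WT) and 22 members (beside 61.6% and 67.5%), between them and brain for 25 and 29 (beside 85.1% and 85.6%), and between cells and brain for 29 (beside 90.6%).

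**Figure D2:**
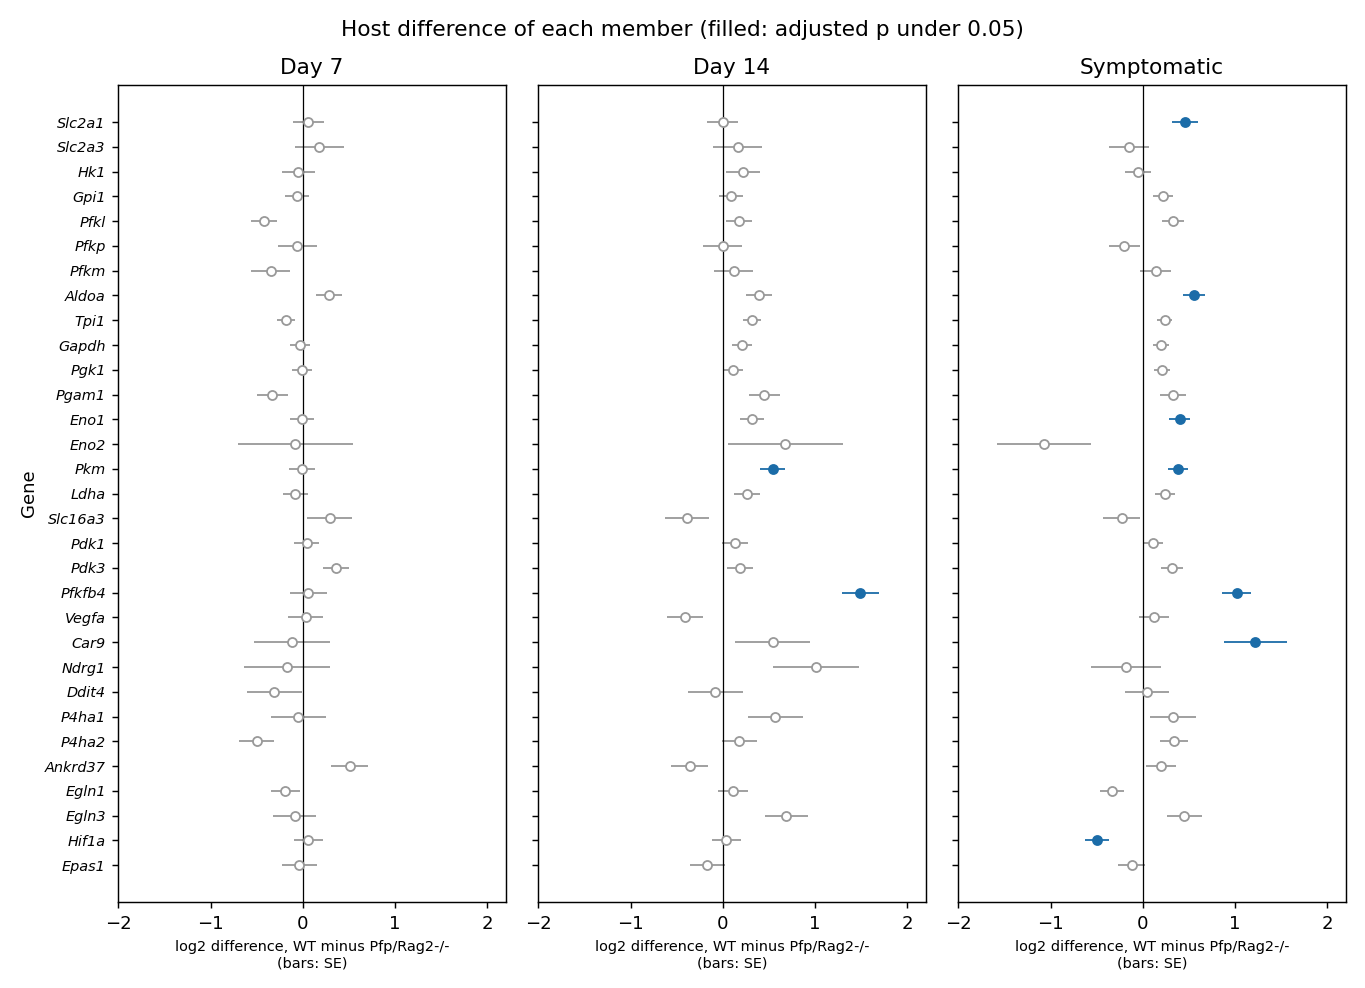
Difference between WT and Pfp/Rag2 -/- tumours in log2 units (points, with standard errors as bars) for each tested member at day 7, day 14 and the symptomatic stage, with filled points for an adjusted p under 0.05. Pfkfb4 stands at 1.49 at day 14 and 1.02 at the symptomatic stage, and Car9 at 1.22 at the symptomatic stage.

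Slc2a1 (GLUT1) carries glucose into most cells and across the blood-brain barrier, and Slc2a3 (GLUT3) is the main transporter of neurons. The log2 normalized signal of Slc2a1 was 11.54 and 11.65 in healthy brain, 10.92 and 10.97 in cultured cells, 11.83 and 11.85 in WT day 7 tumours, and 11.97, 12.61 and 12.37 in symptomatic WT tumours. In symptomatic Pfp/Rag2 -/- tumours it was 11.91, 11.71 and 11.96. All symptomatic WT values exceeded those of Pfp/Rag2 -/- tumours, though array 1 by only a small margin. Slc2a1 was higher in symptomatic WT than Pfp/Rag2 -/- tumours by 0.46 ± 0.14 (SE, 1.37-fold, adjusted p = 0.04). The call was lost without WT array 2 (0.31, adjusted p = 0.16) or 3 (0.43, 0.12) and without Pfp/Rag2 -/- array 1 (0.48, 0.078), 2 (0.38, 0.15) or 3 (0.50, 0.063). From day 7 it rose by 0.48 ± 0.16 in WT hosts (adjusted p = 0.022), a difference that was 0.00 in the unscaled series matrix values and that was not called without either day 7 array (0.47, adjusted p = 0.097, without array 1 and 0.49, 0.077, without array 2), without symptomatic array 2 (0.33, 0.08) or without array 3 (0.45, 0.056). Under cyclic loess this rise was 0.34 (adjusted p = 0.09).

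Slc2a3 stood at 11.41 and 11.40 in brain, 10.45 to 10.72 on the 4 day 7 arrays, 9.51 to 10.21 at day 14, 9.26 to 10.21 at the symptomatic stage and 9.75 and 9.85 in cultured cells. It was highest in brain and next highest at day 7. The log2 difference from day 7 to the symptomatic stage was -1.10 ± 0.25 in WT hosts (adjusted p = 0.003) and -0.77 ± 0.25 in Pfp/Rag2 -/- hosts (adjusted p = 0.023). In Pfp/Rag2 -/- hosts the call was lost without either day 7 array (adjusted p = 0.075 and 0.1) and without symptomatic array 2 (0.058) or 3 (0.06).

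Among the 13 enzyme genes tested, Eno2, Pfkm and Hk1 had the largest excess in brain over cultured cells. Eno2, the neuronal enolase, had log2 levels of 14.29 and 14.30 in brain, 12.72 to 13.28 at day 7, and 8.54 and 8.66 in cultured cells. At day 14 its arrays parted within both hosts (12.30 and 10.42 in WT, 11.68 and 9.69 in Pfp/Rag2 -/- tumours), as did the neuron marker sum (24.8% and 7.22% of brain in WT, 17.6% and 4.26% in Pfp/Rag2 -/- tumours). At the symptomatic stage it was 9.46, 9.25 and 9.81 in WT and 11.30, 10.26 and 10.19 in Pfp/Rag2 -/- tumours. The stage difference was -3.41 ± 0.57 in WT hosts (adjusted p = 0.00047) and -2.42 ± 0.57 in Pfp/Rag2 -/- hosts (adjusted p = 0.0044, but 0.055 without Pfp/Rag2 -/- day 7 array 1). Its host difference at the symptomatic stage, -1.07 ± 0.51, did not pass (adjusted p = 0.17).

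Hk1, the hexokinase of brain, was 7.78 and 7.52 in healthy brain, 6.78 to 6.92 at day 7, 6.01 to 6.61 at the symptomatic stage and 6.17 and 6.41 in cultured cells. It fell by 0.53 ± 0.16 in each host (log2 difference -0.53, adjusted p = 0.015 in WT and 0.017 in Pfp/Rag2 -/- hosts). In WT hosts the call was lost without day 7 array 1 (-0.57, adjusted p = 0.058) or 2 (-0.50, 0.077) and reached only an adjusted p of 0.05 without symptomatic array 1 (-0.40), and in Pfp/Rag2 -/- hosts it was lost without day 7 array 1 (-0.59, 0.058) or 2 (-0.47, 0.081) and without symptomatic array 2 (-0.48, 0.055) or 3 (-0.43, 0.064). Pfkm, the muscle-type phosphofructokinase subunit, was 12.99 and 12.86 in brain and 10.86 on both arrays of cultured cells. On the Pfp/Rag2 -/- day 7 arrays it was 12.31 and 11.67, and at the symptomatic stage 11.30, 11.06 and 11.01. Its fall there (-0.87 ± 0.19, adjusted p = 0.0033) was not called without day 7 array 1 (-0.55, 0.065). In WT tumours Pfkm went from 11.63 and 11.65 at day 7 to 11.17, 11.30 and 11.33, which did not pass.

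Other enzymes rose. Pgk1, an ATP-forming enzyme of glycolysis, had log2 levels of 11.36 on both brain arrays, 12.16 to 12.21 at day 7, 12.34 to 12.64 at day 14, 12.74 to 12.88 in symptomatic WT and 12.59 to 12.64 in symptomatic Pfp/Rag2 -/- tumours, and 12.82 in cultured cells. No symptomatic array of either host overlapped day 7. The rise was 0.65 ± 0.10 in WT hosts (1.56-fold, adjusted p = 0.00031) and 0.42 ± 0.10 in Pfp/Rag2 -/- hosts (1.34-fold, adjusted p = 0.0045), but in the unscaled series matrix values the differences were 0.21 (adjusted p = 0.13) and -0.13. The adjusted p in Pfp/Rag2 -/- hosts was 0.056 without array 1 of the Pfp/Rag2 -/- day 7 and symptomatic groups.

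In WT hosts 4 smaller rises were called. Pfkl, the liver-type phosphofructokinase subunit, rose by 0.57 ± 0.13 (adjusted p = 0.0035, and 0.057 without day 7 array 1). The rise of Eno1, the ubiquitous enolase, was 0.35 ± 0.12 (adjusted p = 0.026). It was not called without day 7 array 1 (0.40, 0.065) or 2 (0.30, 0.13) or symptomatic array 2 (0.32, 0.07), and was at 0.05 without array 3 (0.36). Under cyclic loess the rise of Eno1 was 0.20 (adjusted p = 0.22). Gpi1, glucose-6-phosphate isomerase, and Tpi1, triosephosphate isomerase, rose by 0.31 ± 0.12 and 0.23 ± 0.09 (adjusted p = 0.045 and 0.049). Their differences were -0.31 and -0.85 in the unscaled series matrix values, where another probe of each was read, and that of Tpi1 was -0.12 as a mean over its probes. Under cyclic loess they were 0.17 and 0.13 (adjusted p = 0.29 and 0.28). Leaving out either day 7 array or symptomatic array 2 or 3 ended the call of Gpi1 (0.20 to 0.35, adjusted p = 0.052 to 0.17), and leaving out any of the 5 arrays ended that of Tpi1 (0.21 to 0.26, adjusted p = 0.064 to 0.18).

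In Pfp/Rag2 -/- hosts Pgam1, a phosphoglycerate mutase, and Pkm, pyruvate kinase, fell from day 7 to the symptomatic stage (-0.59 ± 0.15, adjusted p = 0.0068, and -0.59 ± 0.13, adjusted p = 0.0028). Without Pfp/Rag2 -/- day 7 array 1 both calls ended or reached the threshold (-0.40, adjusted p = 0.11, and -0.38, 0.05). The other probe of each gave 0.29 and 0.28 in the same comparison, and as a mean over probes neither was called (-0.15 for both, adjusted p = 0.44 and 0.26). Aldoa, Gapdh and Pfkp were called in neither host.

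Aldoa, Eno1 and Pkm were higher in symptomatic WT than Pfp/Rag2 -/- tumours. Aldoa, aldolase A, had log2 levels of 12.09, 12.34 and 12.23 in WT and 11.68, 11.60 and 11.69 in Pfp/Rag2 -/- tumours. The groups did not overlap, and WT tumours were higher by 0.56 ± 0.12 (1.48-fold, adjusted p = 0.0047), a call that no left-out array ended. Eno1 stood at 11.94, 12.06 and 11.98 against 11.56, 11.51 and 11.70 (0.40 ± 0.11, 1.32-fold, adjusted p = 0.021). Pkm stood at 12.63, 12.60 and 12.50 against 12.27, 12.11 and 12.20 (0.38 ± 0.11, 1.30-fold, adjusted p = 0.036). Without single arrays the Eno1 call ended for WT array 2 or 3 and Pfp/Rag2 -/- array 1 or 2 (0.36 to 0.41, adjusted p = 0.059 to 0.085), and that of Pkm for each of the 6 (0.34 to 0.42, adjusted p = 0.059 to 0.13).

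Pkm was also higher in WT tumours at day 14, with log2 levels of 12.77 and 12.68 against 12.27 and 12.10. The difference was 0.54 ± 0.14 (1.45-fold, adjusted p = 0.022), and it was not called without WT array 1 (0.49, 0.13) or Pfp/Rag2 -/- array 2 (0.45, 0.17). Pkm makes different enzyme forms by alternative splicing, and its 2 linked probes went opposite ways between tissues. The brighter probe, used in all tests above, was lower in cultured cells than in brain (-0.98), and the dimmer one higher (2.89). Against brain, symptomatic WT tumours were at -0.68 by the first and 2.59 by the second probe, and Pfp/Rag2 -/- tumours at -1.06 and 2.08. Both probes were higher in WT than Pfp/Rag2 -/- symptomatic tumours (0.38 and 0.51). Which transcript each probe reads was not tested, since the files used here hold no probe sequences.

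**Figure D3:**
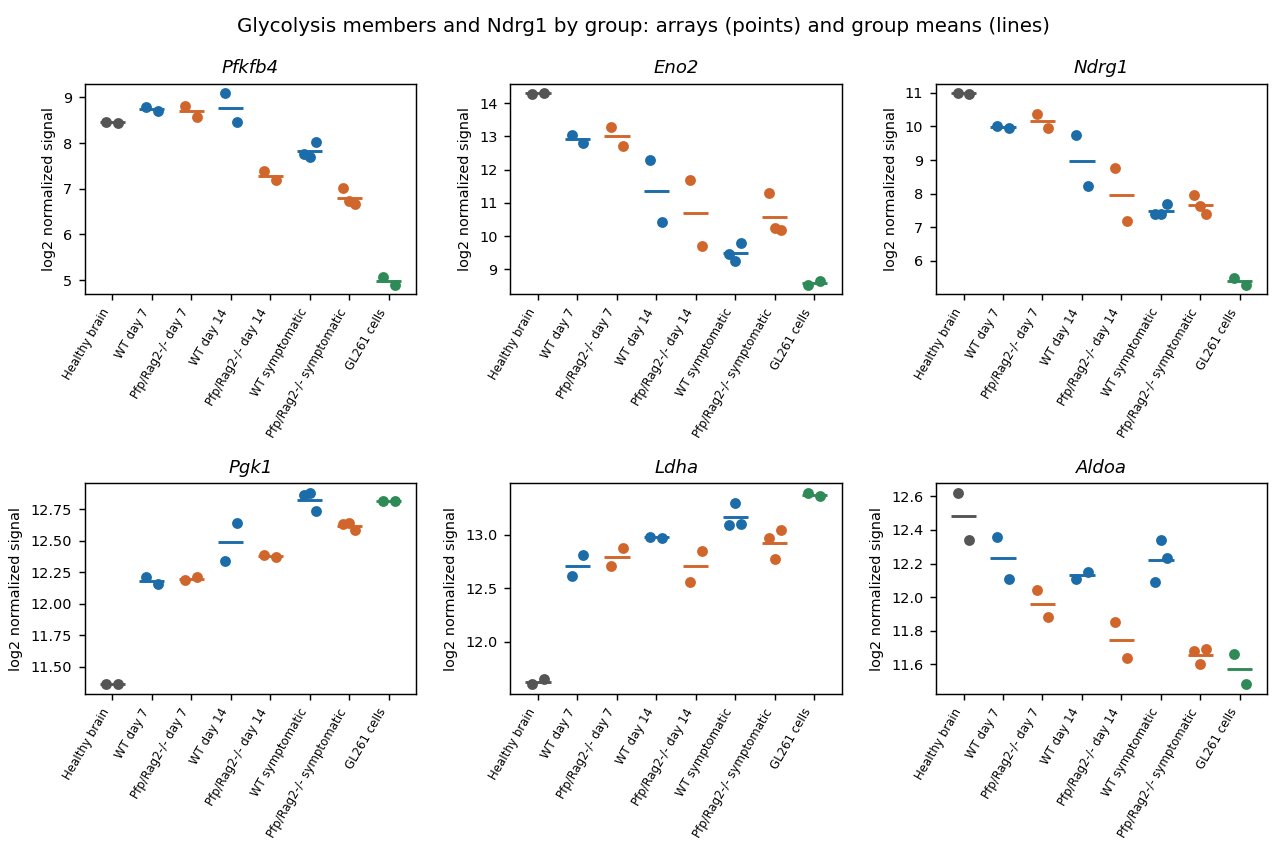
Log2 normalized signal of Pfkfb4, Eno2, Ndrg1, Pgk1, Ldha and Aldoa on each array (points) with group means (lines), in blue for WT and orange for Pfp/Rag2 -/- hosts, grey for brain and green for cultured cells. Pfkfb4 separates the hosts from day 14 on, while Eno2 and Ndrg1 fall from brain through the stages to cultured cells.

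Ldha, which makes lactate from pyruvate, was 11.60 and 11.65 in brain, 13.39 and 13.36 in cultured cells, 12.61 to 12.88 at day 7 and 12.77 to 13.30 at the symptomatic stage. It rose in WT hosts by 0.46 ± 0.12 (1.37-fold, adjusted p = 0.0087, and 0.36, adjusted p = 0.095, without day 7 array 1), but the difference was 0.04 (adjusted p = 0.8) in the unscaled series matrix values. Symptomatic Pfp/Rag2 -/- tumours stayed below cultured cells (-0.45 ± 0.12, adjusted p = 0.014, but 0.055 to 0.083 without Pfp/Rag2 -/- array 2 or either array of cells), and no host difference of Ldha passed. Slc16a3, the lactate exporter MCT4, was detected on 3 of 18 arrays, and no fold is given between groups at background.

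Pfkfb4 carried the largest host difference of the set at day 14. It makes and breaks down fructose-2,6-bisphosphate, the activator of phosphofructokinase. Its log2 levels were 8.47 and 8.44 in brain and 5.06 and 4.90 in cultured cells, where it was not well above background. Day 7 tumours were at 8.79 and 8.71 in WT and 8.82 and 8.56 in Pfp/Rag2 -/- hosts. At day 14 they were at 9.09 and 8.46 against 7.38 and 7.19, and at the symptomatic stage at 7.77, 7.69 and 8.03 against 7.02, 6.73 and 6.67. Host groups overlapped at day 7 and lay apart at both later stages. Also called higher in WT tumours were 8 of 10 microglia and macrophage markers at day 14 and 7 of 10 at the symptomatic stage, and 4 of 5 T cell markers at each. At day 14 so were 2 of 4 oligodendrocyte and 1 of 8 astrocyte markers. At the symptomatic stage 1 of 4 oligodendrocyte markers was called lower and no astrocyte marker was called. The part of these cell types in the host difference was not tested.

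Tests of Pfkfb4 gave 0.06 ± 0.20 at day 7, 1.49 ± 0.20 at day 14 (2.81-fold, adjusted p = 0.00023) and 1.02 ± 0.16 at the symptomatic stage (2.03-fold, adjusted p = 0.00078). No left-out array ended either call, but the day 14 call ended when only the 4 arrays compared were fitted (adjusted p = 0.12). From day 7 to the symptomatic stage it fell in both hosts, by a log2 difference of -0.92 ± 0.18 in WT (adjusted p = 0.0012) and -1.88 ± 0.18 in Pfp/Rag2 -/- hosts (adjusted p = 0.0001). Symptomatic tumours were still at least 3.01-fold (WT) and at least 1.49-fold (Pfp/Rag2 -/-) above cultured cells, the dim side being set to the lowest detected signal of its arrays. The change of the host difference from day 7 to day 14 was 1.43 ± 0.28 (adjusted p = 0.026), the only such change called among members (3.23%, beside 2.42% of all genes, 1.62% higher and 0.803% lower). It was not called without WT day 7 array 1 (1.48, 0.093) or 2 (1.39, 0.069), Pfp/Rag2 -/- day 7 array 1 (1.30, 0.069), WT day 14 array 1 (1.12, 0.068) or Pfp/Rag2 -/- day 14 array 2 (1.34, 0.09). From day 14 to the symptomatic stage no member's host difference changed by limma's adjusted p, beside 0.0287% of all genes (0.00717% higher and 0.0215% lower). Car9 and Pfkfb4 stood at 0.68 and -0.47 there.

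Pdk1 and Pdk3 phosphorylate pyruvate dehydrogenase and so hold pyruvate back from mitochondria. Pdk1 was at 6.97 and 7.15 in brain, 7.57 to 7.95 at day 7, 8.11 to 8.25 at day 14, 8.53, 8.72 and 8.67 in symptomatic WT tumours, 8.48, 8.45 and 8.66 in symptomatic Pfp/Rag2 -/- tumours, and 8.29 and 8.21 in cultured cells. Every later stage lay above the one before without overlap. The rise was 0.84 ± 0.12 in WT (1.79-fold, adjusted p = 0.00025) and 0.77 ± 0.12 in Pfp/Rag2 -/- hosts (1.70-fold, adjusted p = 0.00067), called under each of the 12 (WT) and 13 (Pfp/Rag2 -/-) alternatives run. The unscaled series matrix values hold no Pdk1 and were not among these alternatives. In those values the rises of Pgk1, Vegfa and Ankrd37 shrank or changed sign. The Pdk1 probe read 402 and 420 unscaled in WT day 7 tumours, against 370.5, 456.5 and 421.9 in symptomatic ones. In Pfp/Rag2 -/- hosts it read 386.4 and 427.6 unscaled, against 384, 352.1 and 378.1. Without scaling, the WT stages thus overlapped, and symptomatic Pfp/Rag2 -/- arrays lay below those of day 7. These unscaled signals also hold the shift in array intensity. Pdk3 was not called between hosts or stages, and lay above brain in symptomatic WT (0.81 ± 0.13) and Pfp/Rag2 -/- tumours (0.50 ± 0.13, adjusted p = 7.5e-05 and 0.0038), the latter lost without brain array 2 (0.37, 0.066) and under cyclic loess (0.18, 0.19).

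**Figure D4:**
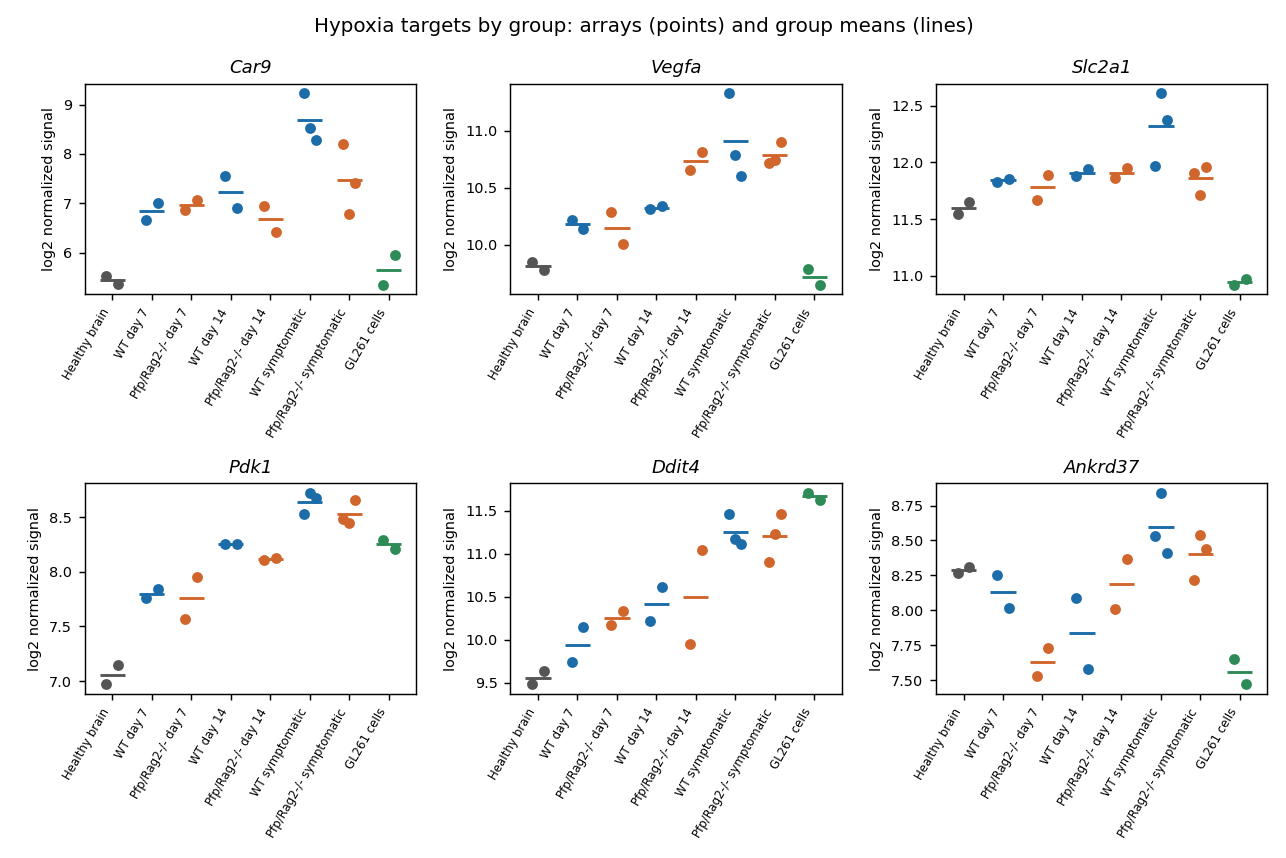
Log2 normalized signal of Car9, Vegfa, Slc2a1, Pdk1, Ddit4 and Ankrd37 on each array (points) with group means (lines), coloured by host as blue (WT) and orange (Pfp/Rag2 -/-), grey for brain and green for cultured cells. Symptomatic tumours lie above day 7 tumours of the same host for Vegfa, Pdk1, Ddit4 and Ankrd37, and Car9 is highest in symptomatic WT tumours.

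Car9, a cell-surface carbonic anhydrase, was at background in healthy brain (5.52 and 5.36) and in cultured cells (5.35 and 5.96). It was 6.67 and 7.01 in WT day 7 tumours, 6.87 and 7.06 in Pfp/Rag2 -/- day 7 tumours, 7.55 and 6.90 against 6.94 and 6.42 at day 14, and 9.23, 8.53 and 8.29 against 8.20, 6.78 and 7.41 at the symptomatic stage. All symptomatic WT arrays lay above all Pfp/Rag2 -/- arrays, the closest pair being 8.29 and 8.20. Car9 rose in WT hosts by 1.84 ± 0.38 (3.59-fold, adjusted p = 0.0016, and 0.74, adjusted p = 0.057, in the unscaled series matrix values), while the Pfp/Rag2 -/- difference of 0.50 did not pass.

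Symptomatic WT tumours had 2.33 times the Car9 signal of Pfp/Rag2 -/- tumours (1.22 ± 0.34, adjusted p = 0.025). The call was lost without WT array 1 (0.95, 0.091), Pfp/Rag2 -/- array 2 (0.88, 0.11) or array 3 (1.19, 0.071). Whether that host difference was itself larger than at day 14 was tested, and the change of 0.68 ± 0.53 did not pass (adjusted p = 0.53). Against cultured cells Car9 was at least 5.44-fold higher in WT and at least 2.34-fold higher in Pfp/Rag2 -/- symptomatic tumours. Its dimmer probes, detected on only 6 and 2 arrays, had positive WT-minus-Pfp/Rag2 -/- differences in symptomatic tumours (0.96 and 0.55). Their adjusted p over all probes was 0.045 and 0.28 (limma). Both were near background on most arrays, so they are a weak check on the probe used.

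Vegfa, the main growth factor of new vessels, had log2 levels of 9.85 and 9.78 in brain and 9.79 and 9.65 in cultured cells, below every tumour array. Day 7 tumours were at 10.01 to 10.29. At day 14 it was 10.31 and 10.34 in WT and 10.66 and 10.81 in Pfp/Rag2 -/- tumours, which did not pass (-0.41). Symptomatic arrays read 11.33, 10.79 and 10.60 in WT and 10.72, 10.74 and 10.90 in Pfp/Rag2 -/- tumours, with overlapping hosts. The rise from day 7 was 0.73 ± 0.17 in WT (1.66-fold, adjusted p = 0.0041) and 0.64 ± 0.17 in Pfp/Rag2 -/- hosts (1.55-fold, adjusted p = 0.0097, and 0.49, adjusted p = 0.076, without Pfp/Rag2 -/- day 7 array 2). In the unscaled series matrix values these differences were 0.18 and 0.01, and neither was called (adjusted p = 0.36 and 0.97).

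Ddit4 (REDD1), a stress-induced inhibitor of mTORC1, was the member with the largest rise shared by both hosts. It read 9.74 and 10.15 in WT and 10.17 and 10.33 in Pfp/Rag2 -/- day 7 tumours, and 11.47, 11.17 and 11.11 and 10.91, 11.23 and 11.47 at the symptomatic stage. Cultured cells were higher still (11.71 and 11.63) and brain lower (9.48 and 9.64). The rise was 1.31 ± 0.27 in WT (2.48-fold, adjusted p = 0.0017) and 0.95 ± 0.27 in Pfp/Rag2 -/- hosts (1.94-fold, adjusted p = 0.012, and 0.87, adjusted p = 0.089, without Pfp/Rag2 -/- day 7 array 1). The latter call also ended in the unscaled series matrix values (0.31, adjusted p = 0.19) and without array 1 of the Pfp/Rag2 -/- day 7 and symptomatic groups (1.02, 0.065). Neuron marker content fell over the same stages, and its part in the rise was not tested.

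Ankrd37, an ankyrin-repeat gene known as a HIF target, was 8.27 and 8.31 in brain, 7.65 and 7.47 in cultured cells, 8.25 and 8.02 in WT and 7.53 and 7.73 in Pfp/Rag2 -/- day 7 tumours, and 8.53, 8.84 and 8.41 and 8.22, 8.54 and 8.44 at the symptomatic stage. It rose by 0.77 ± 0.18 in Pfp/Rag2 -/- hosts (adjusted p = 0.0046, and 0.67, adjusted p = 0.055, without day 7 array 1) and by 0.46 ± 0.18 in WT hosts (adjusted p just under 0.05), but read -0.14 and -0.27 in the unscaled series matrix values. Under cyclic loess neither rise was called (0.47, adjusted p = 0.056, in Pfp/Rag2 -/- hosts and 0.17, 0.47, in WT hosts). Without WT day 7 array 1 or 2 or symptomatic array 1 or 2 the WT call ended (0.33 to 0.58, adjusted p = 0.065 to 0.26).

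Ndrg1, a stress-responsive gene of glia and other tissues that HIF can raise, was 10.99 and 10.98 in brain, 9.95 to 10.37 at day 7, 7.39 to 7.97 at the symptomatic stage, and 5.50 and 5.29 in cultured cells, where it was not well above background. It fell by a log2 difference of -2.50 ± 0.43 in WT (adjusted p = 0.00056) and -2.49 ± 0.43 in Pfp/Rag2 -/- hosts (adjusted p = 0.00089). At day 14 its arrays parted like those of Eno2 (9.74 and 8.22 in WT, 8.76 and 7.19 in Pfp/Rag2 -/- tumours). P4ha1 and P4ha2 encode collagen prolyl hydroxylase subunits. P4ha2 fell in Pfp/Rag2 -/- hosts (-0.59 ± 0.17, adjusted p = 0.013, and 0.069 without day 7 array 1), and P4ha1 was called in neither host by the probe used. Its dimmer probe, detected on 13 arrays, gave -1.68 in Pfp/Rag2 -/- hosts and 1.07 between symptomatic WT and Pfp/Rag2 -/- tumours (limma, adjusted p over all probes 0.00079 and 0.0083).

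Hif1a was the only member called higher in symptomatic Pfp/Rag2 -/- than WT tumours. Its log2 levels were 8.11, 8.20 and 8.01 in WT and 8.44, 8.56 and 8.82 in Pfp/Rag2 -/- tumours, without overlap (-0.50 ± 0.13 for WT minus Pfp/Rag2 -/-, adjusted p = 0.017). The call was lost without WT array 3 (-0.45, 0.072) or Pfp/Rag2 -/- array 3 (-0.39, 0.081). Hif1a rose in Pfp/Rag2 -/- hosts from 7.88 and 8.32 at day 7 (0.50 ± 0.14, adjusted p = 0.012, and 0.29, adjusted p = 0.19, without day 7 array 1), and day 14 values were 8.50 to 8.55 in all 4 tumours. Under cyclic loess the rise in Pfp/Rag2 -/- hosts was 0.23 (adjusted p = 0.16).

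Egln3, an oxygen sensor that HIF itself raises, was at background in brain (5.28 and 5.57), 7.56 and 7.73 in cultured cells, 7.21 to 7.39 at day 7 and 7.77, 8.26 and 8.06 in symptomatic WT tumours. Symptomatic tumours were at least 4.86-fold (WT) and at least 3.56-fold (Pfp/Rag2 -/-) above brain (adjusted p = 1.3e-07 and 8.9e-07). In WT hosts it rose by 0.75 ± 0.21 (1.68-fold, adjusted p = 0.0098, and 0.67, adjusted p = 0.076, without day 7 array 1), but read -0.11 in the unscaled series matrix values and 0.42 (adjusted p = 0.15) under cyclic loess. Egln1, the main sensor, was 7.39 on both brain arrays and 6.31 to 6.91 elsewhere, with no stage or host call. Its symptomatic arrays did not overlap between hosts (6.38 to 6.59 in WT against 6.78 to 6.84), a difference of -0.33 that did not pass (adjusted p = 0.11). Epas1 (HIF-2 alpha) was detected on 3 arrays, both of brain (6.79 and 6.64) and 1 of Pfp/Rag2 -/- day 7 tumours (5.73). Its stage calls therefore compare values at or near background, and no fold is given.

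A few members lay above both cultured cells and healthy brain in symptomatic tumours. Car9, Pdk1, Pfkl, Slc2a1 and Vegfa were called higher in symptomatic WT tumours than in cultured cells and than in brain (5 of 31, 16.1%, beside 9.01% of all genes). In symptomatic Pfp/Rag2 -/- tumours Car9 and Vegfa were (6.45%, beside 7.28%). Slc2a1 exceeded cells by 1.37 ± 0.16 and brain by 0.72 ± 0.16 in WT tumours (adjusted p = 1.6e-05 and 0.00088), but brain by only 0.14 under cyclic loess (adjusted p = 0.42). Pfkl exceeded them by 0.61 ± 0.13 and 0.75 ± 0.13 (adjusted p = 0.0027 and 0.00016), with 0.19 against brain under cyclic loess (0.24) and 0.12 against cells as a mean over probes (0.53). Pdk1 exceeded them by 0.39 ± 0.12 and 1.58 ± 0.12 (adjusted p = 0.028 and 1.1e-07), and its call against cells ended without WT array 2 or 3 or either array of cells (0.35 to 0.43, adjusted p = 0.07 to 0.15). Vegfa exceeded cells by 1.19 ± 0.17 and brain by 1.10 ± 0.17 (adjusted p = 0.00014 and 6.2e-05), and in Pfp/Rag2 -/- tumours by 1.07 ± 0.17 and 0.97 ± 0.17 (adjusted p = 0.00037 and 0.0002). Below both were Egln1 in WT and Pgam1 in Pfp/Rag2 -/- tumours (1 of 31 each, 3.23%, beside 5.13% and 3.90%). Against cells, Egln1 was lower by -0.41 ± 0.15 (adjusted p = 0.048) and Pgam1 by -0.45 ± 0.15 (adjusted p = 0.034), and these calls ended in 9 of 11 and 7 of 12 alternatives, among them each left-out array of the groups compared. Markers of other cell types also differed between tumours and brain or cells, and their part was not tested. Of 10 microglia and macrophage markers, 7 were called higher and 1 lower than brain in symptomatic WT tumours. In symptomatic Pfp/Rag2 -/- tumours 5 were called higher and 3 lower.

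**Figure D5:**
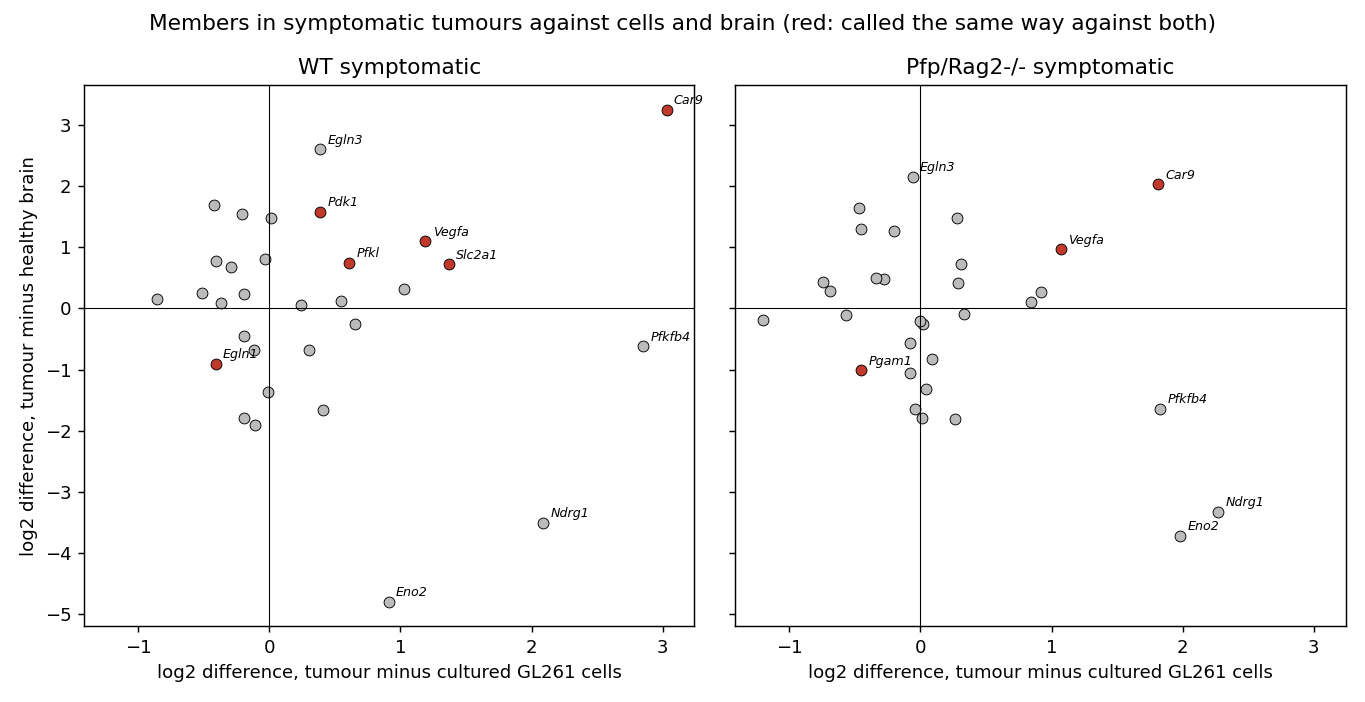
Log2 difference of symptomatic tumours from cultured GL261 cells (horizontal axis) and from healthy brain (vertical axis) for each tested member, in WT (left) and Pfp/Rag2 -/- hosts (right), with members called the same way against both in red. Car9 and Vegfa lie in the upper right corner in both hosts, while Eno2, Ndrg1 and Pfkfb4 lie between cells and brain.

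Against cultured cells, 13 of 31 members were called in symptomatic tumours of each host (41.9%, beside 33.6% of all genes in WT and 35.8% in Pfp/Rag2 -/- hosts), with 10 higher and 3 lower in WT (all genes 17.3% and 16.2%) and 8 higher and 5 lower in Pfp/Rag2 -/- tumours (18.7% and 17.1%). In the unscaled series matrix values the splits were 15 higher and 0 lower, and 13 higher and 0 lower. Gapdh, the glyceraldehyde-3-phosphate dehydrogenase often used as a reference gene, was lower in tumours than in cells (-0.37 ± 0.10 in WT and -0.57 ± 0.10 in Pfp/Rag2 -/- tumours, adjusted p = 0.011 and 0.00057). In WT tumours this call of Gapdh ended without array 2 of cells (-0.33, adjusted p = 0.089). P4ha2 was lower by -0.86 ± 0.17 and -1.20 ± 0.17 (adjusted p = 0.0015 and 0.00011). WT tumours also exceeded cells in Car9 (at least 5.44-fold), Ndrg1 (at least 2.38-fold), Ankrd37 (1.03 ± 0.18), Aldoa (0.65 ± 0.13) and Gpi1 (0.55 ± 0.12), with adjusted p from 3.4e-05 to 0.0034. Pfp/Rag2 -/- tumours exceeded cells in Ndrg1 (at least 2.70-fold), Eno2 (1.98 ± 0.57), Car9 (at least 2.34-fold), Slc2a1 (0.92 ± 0.16), Ankrd37 (0.84 ± 0.18) and Gpi1 (0.33 ± 0.12), with adjusted p from 0.00053 to 0.049, and were lower in Eno1 (-0.69 ± 0.12, adjusted p = 0.00062). The Eno2 call ended without Pfp/Rag2 -/- array 1 or either array of cells (1.63 to 2.04, adjusted p = 0.058 to 0.087), and that of Gpi1 without any single array of the groups compared (adjusted p = 0.082 to 0.24).

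Against brain, 23 members were called in WT (74.2%, beside 77.0%) and 22 in Pfp/Rag2 -/- tumours (71.0%, beside 73.8%). They divided into 12 higher and 11 lower (all genes 42.3% and 34.7%), and 11 higher and 11 lower (40.0% and 33.8%), with 8 and 15, and 8 and 17, under cyclic loess. Beyond members given above, WT tumours were higher in Car9 (at least 7.64-fold), Ddit4 (1.69 ± 0.27), Ldha (1.54 ± 0.12), Pgk1 (1.47 ± 0.10), P4ha1 (0.77 ± 0.28) and Eno1 (0.68 ± 0.12), with adjusted p from 2.9e-08 to 0.022. They were lower in Eno2 (-4.79 ± 0.57), Ndrg1 (-3.50 ± 0.43), Epas1 (at least 1.75-fold), Slc2a3 (-1.79 ± 0.25), Pfkm (-1.66 ± 0.19), Hk1 (-1.37 ± 0.16), Egln1 (-0.90 ± 0.15), Pgam1 (-0.68 ± 0.15), Pkm (-0.68 ± 0.13), Pfkfb4 (-0.62 ± 0.18) and Pfkp (-0.45 ± 0.19), with adjusted p from 3.3e-07 to 0.044. The calls of Eno1 under cyclic loess (0.11, adjusted p = 0.46), Pfkfb4 in the unscaled series matrix values (-0.32, 0.16), Pfkp without WT array 1 (-0.21, 0.16) or either brain array, and P4ha1 without WT array 2 or 3 or either brain array (0.62 to 0.77, 0.078 to 0.083) ended. Pfp/Rag2 -/- tumours were higher than brain in Car9 (at least 3.28-fold), Ddit4 (1.64 ± 0.27), Pdk1 (1.47 ± 0.12), Ldha (1.30 ± 0.12), Pgk1 (1.26 ± 0.10), Hif1a (0.73 ± 0.14), Pfkl (0.42 ± 0.13) and Eno1 (0.28 ± 0.12), with adjusted p from 1.4e-07 to 0.049. They were lower in Eno2 (-3.71 ± 0.57), Ndrg1 (-3.32 ± 0.43), Pfkm (-1.81 ± 0.19), Epas1 (at least 1.81-fold), Slc2a3 (-1.64 ± 0.25), Pfkfb4 (-1.64 ± 0.18), Hk1 (-1.32 ± 0.16), Pkm (-1.06 ± 0.13), Pgam1 (-1.01 ± 0.15), Aldoa (-0.82 ± 0.13) and Egln1 (-0.57 ± 0.15), with adjusted p from 7.2e-07 to 0.0034. Under cyclic loess Pfkl and Eno1 read -0.18 and -0.32 there, and as a mean over probes Pkm was higher than brain in both hosts (0.96 in WT and 0.51 in Pfp/Rag2 -/- tumours).

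Of 27 other glycolysis genes tested, 3 were higher and 3 lower in symptomatic WT than Pfp/Rag2 -/- tumours, with a median difference of -0.09, beside 9.18% higher, 7.87% lower and a median of -0.02 over all genes. Among them Hk3, the hexokinase of myeloid cells, was higher in WT tumours at day 7 (2.04 ± 0.26), day 14 (3.15 ± 0.26) and the symptomatic stage (2.61 ± 0.22, detected on 1 of 3 Pfp/Rag2 -/- arrays), with adjusted p = 0.00084, 8.6e-06 and 4.6e-06. Galm, aldose 1-epimerase, was lower at day 7 (-1.19 ± 0.15, adjusted p = 0.00066, detected on 1 of 2 WT arrays) and at least 1.83-fold lower at the symptomatic stage (adjusted p = 7.8e-05), where no WT array detected it. From day 7 to the symptomatic stage 5 were higher and 9 lower in WT (all genes 30.7% and 21.4%) and 2 higher and 10 lower in Pfp/Rag2 -/- hosts (26.8% and 21.7%), with Pdk4, a pyruvate dehydrogenase kinase, and Aldoc, the aldolase of astrocytes, at -2.34 ± 0.48 and -2.42 ± 0.52 in Pfp/Rag2 -/- hosts (adjusted p = 0.0022 and 0.0029), where Pdk4 was detected on 1 of 3 symptomatic arrays.

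Of 46 other hypoxia response genes tested, 8 were higher and 3 lower in symptomatic WT than Pfp/Rag2 -/- tumours, with a median of 0.16, beside 9.18% higher, 7.87% lower and a median of -0.02 over all genes. Angpt2, a vessel-destabilising ligand of Tie2, was higher by 0.53 ± 0.09 (adjusted p = 0.0012), Cxcr4, a chemokine receptor, by 1.18 ± 0.21 (0.0022) and Tes, a focal adhesion gene, by 1.51 ± 0.14 (9e-06), while Cdkn1a, the cell cycle inhibitor p21, was lower by -0.99 ± 0.13 (0.00025). From day 7 to the symptomatic stage 14 were higher and 6 lower in WT hosts (median 0.22; all genes 30.7%, 21.4% and 0.15) and 11 higher and 9 lower in Pfp/Rag2 -/- hosts (median 0.05; all genes 26.8%, 21.7% and 0.13). Angpt2 rose in WT hosts by 1.43 ± 0.10 (adjusted p = 7.6e-06), and Gbe1, a glycogen branching enzyme not well above background at day 7, rose at least 1.70-fold (adjusted p = 0.00022). Trf, the iron carrier transferrin, fell in both hosts (-1.90 ± 0.24 and -1.71 ± 0.24, adjusted p = 0.00013 and 0.00042).

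Probes set a limit on single members. Of the 34 members in the table, 14 had 1 linked probe and 20 several, and the brightest stood for the gene. Besides Pkm, the second probe of P4ha1 differed in sign between cells and brain (1.18 for the probe used and -0.46 for the other) and between symptomatic Pfp/Rag2 -/- tumours and brain (0.44 and -1.84). For Pfkl the probe used and the other gave -0.19 and 0.74 between Pfp/Rag2 -/- stages and 0.61 and -0.38 between symptomatic WT tumours and cells. A Tpi1 probe detected on 5 arrays gave -2.66 between symptomatic WT tumours and brain, where the one used gave 0.05. For Egln1 the probe used gave -0.49 between cells and brain and its 2 others 0.27 and 0.25. Genes with close relatives or processed pseudogenes, such as Gapdh, Ldha, Tpi1, Eno1 and Pgam1, may share signal with them, which was not tested.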

How the data were processed

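Gene expression was measured on 18 Illumina MouseWG-6 v2.0 arrays with biotinylated cRNA, per the labels' protocols. The deposited probe intensity values are not normalized (Normalization = none in GenomeStudio 1.9.0, per the file headers of the gene table). The authors' deposited gene table holds other values per gene and group (lowest, mean and highest signal and a detection score). The probe table carries no gene names, so 30469 of 30854 genes were linked to 1 to 4 probes by matching group means, and none of 30854 decoy genes could be linked to 1 or 2 probes. Links to 3 probes (2370 genes, Car9, Vegfa, Pgk1 and Hif1a among them) or 4 probes (845 genes) were not checked with decoys. The members and lists were chosen with earlier results of these data known.

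Intensities were corrected and quantile-scaled with neqc (limma 3.58.1, R 4.3.3, offset 16). A probe was kept if its detection p lay under 0.01 on 2 or more arrays, and the brightest stood for its gene. limma fitted 8 group means with 10 residual degrees of freedom, and p-values were adjusted (Benjamini-Hochberg) over 13947 genes for each of 12 contrasts, an adjusted p under 0.05 being called. The fit was tested on simulated data. Where a probe was not well above background on every array of a group, folds are bounds. Called members (at most 25 a contrast, save some near background) are given with their differences, their adjusted p or its range, and up to 4 genes of each other list by smallest p. The labels of healthy brain also name the cell line GL261, and replicates 2 and 3 of the symptomatic Pfp/Rag2 -/- group swap numbers between title and description, so title numbers were used. The number of arrays limits the precision. Alternatives were background correction, scaling, filter, probe choice, arrays fitted, replicate block, left-out arrays and the deposited series matrix intensities. The last are unscaled and not background-corrected. The brightest detected probe that they hold stood for a gene, so some members were read there by another probe. Hk2 and Ldhb were not analysed here. Sequences are RefSeq's (GRCm38.p6).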

Additional observations from a re-analysis of the deposited data

Results flagged for a closer look

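For Pfkfb4, the difference between WT and Pfp/Rag2 -/- tumours changed between day 7 and day 14 by 1.43 ± 0.28 on the log2 scale (limma, adjusted p = 0.026), from 0.06 to 1.49. It stood out because the same host contrast differed between the 2 time points in a test of the difference itself. The call ended without any one of 5 of the 8 arrays (adjusted p = 0.068 to 0.093), and also without array 1 of the Pfp/Rag2 -/- day 7 and symptomatic groups (1.30, adjusted p = 0.075).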

How the results depend on the processing

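Of 1745 pairs of a called member and an alternative, 1516 were still called, 211 were not and 18 changed sign. The member counts that moved by over 1.5 times were as follows, and the cause was not tested. At day 14 the host count of 2 became 5 under cyclic loess, 1 in the unscaled series matrix values (20 members) and 0 in a fit of only the arrays compared. The WT stage count of 19 became 11 in the series matrix values, which hold only those 20 members. Without array 1 of the Pfp/Rag2 -/- day 7 and symptomatic groups, chosen after seeing the data, the Pfp/Rag2 -/- stage count of 16 became 8. The count of 1 changed host difference (day 14 against day 7) became 2 without background correction and 0 in the series matrix values, with only the arrays compared, with only the 14 tumour arrays and without those 2 arrays. Leaving out single arrays gave 0 to 0 calls between hosts at day 7, 1 to 4 at day 14 and 3 to 8 at the symptomatic stage, 9 to 17 (WT) and 5 to 16 (Pfp/Rag2 -/-) between stages, and 0 to 3 for the change of host difference.

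Signs changed in the series matrix values from day 7 to the symptomatic stage for Slc2a1 (0.00), Gpi1 (-0.31), Tpi1 (-0.85), Ankrd37 (-0.27) and Egln3 (-0.11) in WT hosts and for Pgk1 (-0.13) and Ankrd37 (-0.14) in Pfp/Rag2 -/- hosts. There the brightest detected probe held by the series matrix stood for a gene, and for Pkm, Gpi1 and Tpi1 it was not the probe of the main fit. By that other probe Pkm against brain read 2.15 (WT tumours), 1.62 (Pfp/Rag2 -/- tumours) and 1.89 (cells). By the probe of the main fit, unscaled Pkm signals were 5566.3 to 6203.9 in symptomatic WT tumours and 7634.2 and 6524.4 in brain, so not reversed. The mean over probes gave 0.96, 0.51 and 0.96 for Pkm, -0.12 for Tpi1 between WT stages and 0.01 for Egln1 between cells and brain. Under cyclic loess Pfkl and Eno1 became -0.18 and -0.32 in Pfp/Rag2 -/- tumours against brain, and Gapdh -0.20 in cells against brain.

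With the replicate number as a block, the counts were 3 at day 14, 7 at the symptomatic stage, 15 and 17 between stages in WT and Pfp/Rag2 -/- hosts, and 1 for the changed host difference. Between hosts, the deviations of same-numbered arrays from their group means correlated across genes at 0.06 (day 7), 0.72 (day 14) and -0.25 to 0.08 (symptomatic). With 2 arrays in a group the deviations mirror each other, so day 7 and day 14 give 1 value each. The numbers were not taken as pairs in the main fit, though at day 14 same-numbered arrays shifted alike. The slide as a block was not run, since the files used here give no slide. Signal over background limits Slc16a3 and Epas1, each detected on 3 arrays.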
